A study of Mus musculus with 4 samples.

Results

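Granzyme C/F-high CD8 T cells were described in the immune infiltrate of CT2a gliomas. A cell was a member where its barcode had at least 500 detected genes and under 10% mitochondrial UMIs, at least 2 UMIs of Cd3d, Cd3e and Trac together and of Cd8a and Cd8b1 together, no Ncr1, Cd4 or Foxp3 UMI, under 30 UMIs of the C1q genes C1qa, C1qb and C1qc, and at least 3 UMIs of Gzmc and Gzmf together. By this rule 189 of the 12866 cells that passed the quality limits were members, 1.47% of all cells and 22.9% of the 827 CD8 T cells. They comprised 97 WT and 92 CaMKK2 KO cells. The 638 CD8 T cells with fewer than 3 UMIs of the pair (343 WT, 295 CaMKK2 KO) were the cells they were compared with and are called other CD8 T cells here. Members were thus selected on their Gzmc and Gzmf counts, whose levels are given as a description with no test.

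The cells were live CD45+ cells sorted from tumor-bearing hemispheres 14 days after intracranial implantation of CT2a, a transplantable mouse glioma line. The WT group held 4 female C57Bl/6 mice and the CaMKK2 KO group 4 female mice with germline loss of CaMKK2 on the same background, 8 to 12 weeks old and otherwise untreated. Every cell of the host carried the loss, T cells included, and the implanted tumor did not. Cells of the 4 mice of a genotype were marked with 4 hashtag antibodies, pooled and loaded on 1 channel of the 10X platform, so that genotype and channel cannot be told apart. Hashtags gave 171 members to a mouse, which is the replicate in every test. The other 18 members (9.52%) carried the hashtags of more than 1 mouse, against 30 of the other 638 CD8 T cells (4.7%), and were left out of all values by mouse. Numbers, shares and medians of cells given per genotype pool its mice, include these cells and are descriptions with no test. A total of 42 barcodes occurred in both libraries, 4 of them among members.

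Granzymes are serine proteases that cytotoxic lymphocytes store in granules and release onto target cells, where perforin lets them enter. Granzyme B, which sets off apoptosis, lies in the mouse beside a cluster of close relatives (granzymes C, D, E, F, G and N) that strongly activated T and NK cells switch on late. Metallothioneins, which bind zinc and copper, are a further gene family that activated and chronically stimulated T cells can express.

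The granzyme genes lie on the minus strand of chromosome 14 (GRCm38), Gzme at chr14:56117626-56120625, Gzmd at chr14:56129556-56132608, Gzmf at chr14:56205263-56211417, Gzmc at chr14:56231441-56234656 and Gzmb at chr14:56258838-56262260. The metallothionein genes Mt2 (chr8:94172664-94173568) and Mt1 (chr8:94179082-94180327) lie on the plus strand of chromosome 8. Promoters from 250 bases before to 50 bases after the start (RefSeq, GRCm38.p6) are shown 5′ to 3′ because Gzmc and Gzmf define the members, Gzme differed between the genotypes in them and Gzmn, in the same cluster, was not detected. Capitals mark TGTGGT, the core bound by RUNX factors, on either strand.
Gzmc promoter, chr14:56234608-56234907, minus strand: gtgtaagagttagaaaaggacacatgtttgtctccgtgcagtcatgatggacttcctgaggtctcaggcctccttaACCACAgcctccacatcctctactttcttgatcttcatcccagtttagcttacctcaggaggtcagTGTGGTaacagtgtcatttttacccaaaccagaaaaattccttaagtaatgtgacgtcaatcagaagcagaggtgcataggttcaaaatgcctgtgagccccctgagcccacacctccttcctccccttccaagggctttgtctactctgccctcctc
Gzmf promoter, chr14:56211358-56211657, minus strand: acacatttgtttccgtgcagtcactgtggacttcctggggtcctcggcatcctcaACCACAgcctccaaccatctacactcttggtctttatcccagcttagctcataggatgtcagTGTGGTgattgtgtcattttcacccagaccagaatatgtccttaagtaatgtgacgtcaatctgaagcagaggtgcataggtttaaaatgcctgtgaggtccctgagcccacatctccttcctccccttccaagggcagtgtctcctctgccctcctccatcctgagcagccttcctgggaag
Gzme promoter, chr14:56120576-56120875, minus strand: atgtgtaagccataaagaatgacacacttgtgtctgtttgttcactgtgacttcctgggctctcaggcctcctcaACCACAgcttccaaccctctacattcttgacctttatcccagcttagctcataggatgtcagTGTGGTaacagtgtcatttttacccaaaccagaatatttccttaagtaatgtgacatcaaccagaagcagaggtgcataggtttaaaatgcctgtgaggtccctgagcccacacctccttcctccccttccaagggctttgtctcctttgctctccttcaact
Gzmn promoter, chr14:56174550-56174849, minus strand: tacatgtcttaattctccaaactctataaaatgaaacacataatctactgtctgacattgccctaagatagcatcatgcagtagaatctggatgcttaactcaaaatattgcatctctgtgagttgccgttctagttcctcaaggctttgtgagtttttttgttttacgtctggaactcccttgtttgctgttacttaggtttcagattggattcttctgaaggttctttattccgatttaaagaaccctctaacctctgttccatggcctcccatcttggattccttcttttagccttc
The core occurred 2 times in the promoters of Gzmb, Gzmc, Gzmd, Gzme, Gzmf and Gzmg and 0 times in that of Gzmn. Of 27025 mouse promoters of the same length, 16.9% held at least 1 match and 1.84% at least 2. The promoters of Gzmc and Gzmf were 73.5% identical, those of Gzmd and Gzme 93.4%, and those of Gzmc and Gzmn 44%. A match is a description of the letters, not a binding site. The promoters of Mt1 and Mt2 are shown because both genes stood higher in members in every mouse compared. Capitals mark TGCNCNC on either strand, a looser pattern than TGCRCNC (R is A or G), the core of the metal response element. In Mt2 the stretches TGCTCTC and GGGAGCA match only the looser pattern.
Mt1 promoter, chr8:94178839-94179138, plus strand: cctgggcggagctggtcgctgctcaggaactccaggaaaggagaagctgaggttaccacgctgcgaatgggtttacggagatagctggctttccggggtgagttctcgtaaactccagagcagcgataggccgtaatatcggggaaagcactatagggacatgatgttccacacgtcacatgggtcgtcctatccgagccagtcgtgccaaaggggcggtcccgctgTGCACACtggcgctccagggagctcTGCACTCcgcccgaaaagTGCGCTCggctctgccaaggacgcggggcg
Mt2 promoter, chr8:94172368-94172667, plus strand: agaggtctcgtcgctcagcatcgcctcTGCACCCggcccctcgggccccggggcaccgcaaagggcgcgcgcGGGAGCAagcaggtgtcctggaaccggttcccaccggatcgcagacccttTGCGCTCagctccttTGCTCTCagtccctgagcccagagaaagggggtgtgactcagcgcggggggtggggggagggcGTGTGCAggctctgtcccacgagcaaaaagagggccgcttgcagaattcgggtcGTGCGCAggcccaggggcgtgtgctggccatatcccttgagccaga
The looser pattern occurred 3 times in Mt1 and 6 times in Mt2, against at least 1 match in 50.4% and at least 3 in 6.95% of all promoters.

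Camkk2, the targeted gene, was first examined in all cells of each mouse. It reached 27.3, 28.3, 35.8 and 27.5 CPM (UMI counts scaled to the same total in every sample) in WT mice 1 to 4 and 14.0, 17, 13.1 and 22.4 CPM in CaMKK2 KO mice 1 to 4. All 4 CaMKK2 KO mice lay below all 4 WT mice (29.7 ± 4.05 against 16.6 ± 4.19 CPM, mean ± SD, n = 4 each), and transcripts remained detectable. Counts at the 3′ end need not fall in a deleted stretch, so that they check the labels only in part. In members Camkk2 gave 22 UMIs in all, too few to test.

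The rule itself fixed that members held Cd3 and Cd8 transcripts and no Ncr1. Cd8a lay at 613 to 1157 CPM and Cd8b1 at 631 to 1231 CPM in the members of the 6 mice with at least 10 of them. Outside the rule, the gamma-delta T-cell genes Trdv4 and Sox13 were at 0, and 5 B-cell marker genes summed to 41.6 CPM or less. Of the label's further markers, Mt2 was higher in members than in other CD8 T cells in 6 of 6 mice, at 126 ± 99.7 against 27.3 ± 19.0 CPM. By CPM, Xcl1, the chemokine that attracts Xcr1-positive dendritic cells, went against the label. It was higher in members in 1 of 6 mice, with a mean of 132 ± 131 against 167 ± 44.7 CPM. That mouse was WT mouse 4, whose members held 393 CPM. By cells, Xcl1 was detected in 27.8% of WT members against 20.4% of other WT CD8 T cells. In CaMKK2 KO mice the shares were 40.2% against 31.9%. Members were more deeply covered, and the part of depth in these shares was not tested.

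Members differed widely among themselves in how much Gzmc and Gzmf RNA they held. The median was 25 UMIs of the pair per cell (19 in WT, 29 in CaMKK2 KO), the middle of the distribution ran from 8 to 89 UMIs (quartiles), and the highest cell held 1028. At least 10 UMIs were present in 135 members and at least 100 in 46. Both genes were detected in 115 members, Gzmc alone in 53 and Gzmf alone in 21. Just inside the threshold lay 18 cells with 3 UMIs (median depth 12908.5 UMIs), and just outside it 38 cells with 2 UMIs (11660.5). Of the other CD8 T cells, 446 held no UMI of either gene and 154 held 1. In B cells, which should lack both genes, 1 of 325 cells (0.308%, median depth 4261 UMIs) held 3 or more UMIs, and in macrophages and microglia 46 of 3978 (1.16%, median depth 16711 UMIs). At least 1 UMI was found in 20.3% of B cells and 23.7% of macrophages and microglia, against 46.1% of CD8 T cells (median depth 11565 UMIs). Single UMIs therefore occurred in cells of all these classes, whereas 3 or more UMIs were found mainly in CD8 T cells and NK cells.

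Members were also the more deeply covered cells. Their median depth was 17599 UMIs (16537 in WT, 18896 in CaMKK2 KO), and that of other CD8 T cells 10550.5 (9839 and 11551). CaMKK2 KO mouse 2 stood apart, with a median of 33063 UMIs in its members against 14447 to 19785.5 in those of the other 7 mice. The part of this difference in the comparisons was not tested, apart from the values after thinning given with the results. When each cell was thinned to 4000 UMIs, which left out 1 member and 21 other CD8 T cells, 63 WT and 61 CaMKK2 KO members still held 3 or more UMIs of the pair. In the gene fits after thinning only these cells counted as members, and the remaining thinned members were placed with the other CD8 T cells. Those fits therefore combine lower depth with a changed gate. Shares of cycling cells after thinning kept the original states.

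The share of CD8 T cells that were members varied between mice of a genotype more than between genotypes. In WT mice 1 to 4 it was 16.7% (3 of 18 cells), 36.8% (43 of 117), 8.92% (14 of 157) and 20.8% (26 of 125). In CaMKK2 KO mice 1 to 4 it was 21.6% (29 of 134), 43.1% (25 of 58), 21.1% (28 of 133) and 8.11% (3 of 37). Mouse 2 of each genotype had the highest share, and the 2 groups overlapped over nearly their whole range. The means were 20.8% ± 11.7 in WT and 23.5% ± 14.5 in CaMKK2 KO mice (SD, n = 4 each, two-sided exact permutation p = 0.743, adjusted over the 2 shares tested 0.83). As a share of all cells of a mouse, members made up 1.47% ± 1.15 and 1.34% ± 0.781 (exact permutation p = 0.83, adjusted 0.83). The difference in the share of CD8 T cells changed sign without WT mouse 3 (-1.26 percentage points) or CaMKK2 KO mouse 2 (-3.85), and that in the share of all cells without WT mouse 2 (0.368) or CaMKK2 KO mouse 4 (0.235). WT mouse 1 and CaMKK2 KO mouse 4 had 3 members each and were left out of the edgeR fits of members, except in an alternative with all mice.

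**Figure D1:**
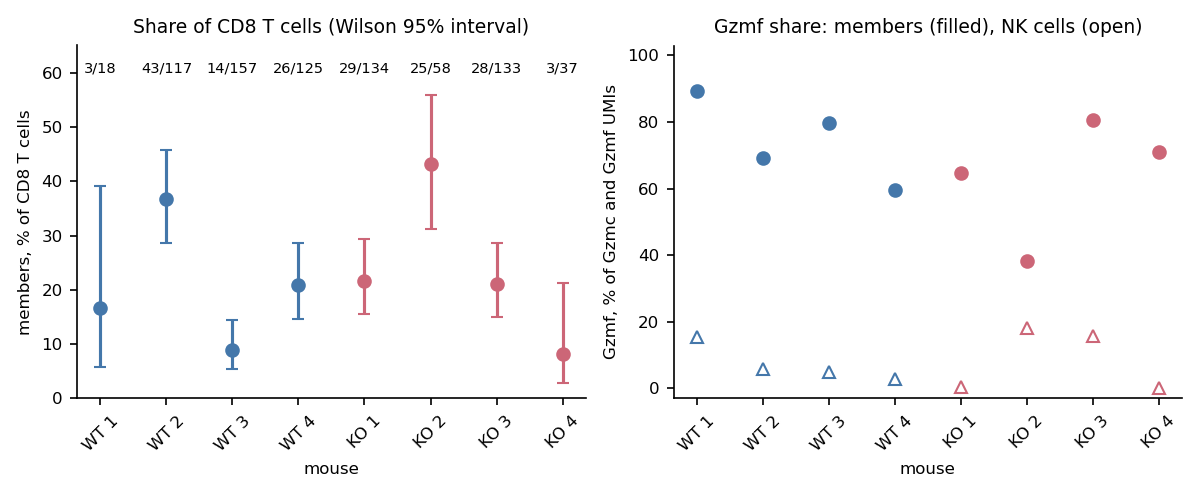
Left, members as a percent of CD8 T cells in each of the 8 mice, with 95% Wilson intervals that cover counting error only and the counts of cells beside each point. Right, Gzmf as a percent of the Gzmc and Gzmf UMIs of each mouse in members (filled) and in NK cells with at least 3 of these UMIs (open). Shares run from 8.11% to 43.1% with both genotypes mixed, and in every mouse the Gzmf percent is higher in members than in NK cells.

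By summed UMIs, Gzmf outweighed Gzmc in the members of 7 of 8 mice, but not in NK cells. Gzmf supplied 89.3%, 69.2%, 79.7% and 59.6% of the Gzmc and Gzmf UMIs of members in WT mice 1 to 4. In CaMKK2 KO mice 1 to 4 it supplied 64.8%, 38.2%, 80.7% and 71.1%. CaMKK2 KO mouse 2 was the only mouse whose members held more Gzmc than Gzmf UMIs. The genotypes overlapped (74.4% ± 12.9 against 63.7% ± 18.2, SD, n = 4 each), and the 2 mice with 3 members are included. NK cells, gated on Ncr1 without Cd3 genes, held 3 or more UMIs of the pair in 34.9% of 1134 cells (median depth 8279 UMIs). In those NK cells Gzmf supplied 15.3%, 5.84%, 5.07% and 2.81% in WT mice and 0.374%, 18.1%, 15.7% and 0% in CaMKK2 KO mice. The Gzmf percent was thus higher in members than in NK cells in 8 of 8 mice, a pattern noticed in the data and given without a test. In the NK cells with 3 or more UMIs of the pair Gzmc itself stood at 5941 to 14410 CPM, above the 451 to 2385 CPM of members. A few cells carried much of the pair, and counts per cell gave another balance. The median member held 4 Gzmc and 16 Gzmf UMIs in WT and 7.5 Gzmc and 3 Gzmf UMIs in CaMKK2 KO mice. Gzmc was detected in 89.7% of WT and 88% of CaMKK2 KO members, and Gzmf in 80.4% and 63%. These medians and shares pool the cells of a genotype, and 43 of the 97 WT members were assigned to WT mouse 2. The 3 highest members of a mouse held 31% to 87.4% of its Gzmc and Gzmf UMIs in the 6 mice with at least 10 members.

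Of the neighbouring granzymes, Gzmd and Gzme were found in part of the WT members and hardly in CaMKK2 KO members. Gzmd was detected in 16 of 97 WT and 6 of 92 CaMKK2 KO members, and Gzme in 13 and 4. In WT members the 3 highest cells held 87.1% of the Gzmd and 72.6% of the Gzme UMIs. Gzmg was detected in 4 of 97 WT and 0 of 92 CaMKK2 KO members, which allows a share of up to 3.26%. Gzmn was not detected in any of the 189 members, which allows up to 1.59%. Both limits are for cells with a UMI, not for cells that express the gene. Gzma was detected in 16 of 97 WT and 43 of 92 CaMKK2 KO members, and stood at 4790 CPM in the members of CaMKK2 KO mouse 2 against 0 to 393 CPM in the other 7 mice. This was not particular to members, since Gzma was detected in 9.91% of WT and 40.7% of CaMKK2 KO other CD8 T cells. NK cells averaged 2760 CPM of Gzma in WT against 8990 CPM in CaMKK2 KO mice, without overlap. The coding sequences of Gzmd and Gzme are 93.3% identical and those of Gzmc and Gzmf 71.8%. At the read length of 91 bases, Gzmd and Gzme shared 6 of 874 windows (0.686%), with 0 in the last 400 bases, and Gzmc and Gzmf shared 0.

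**Figure D2:**
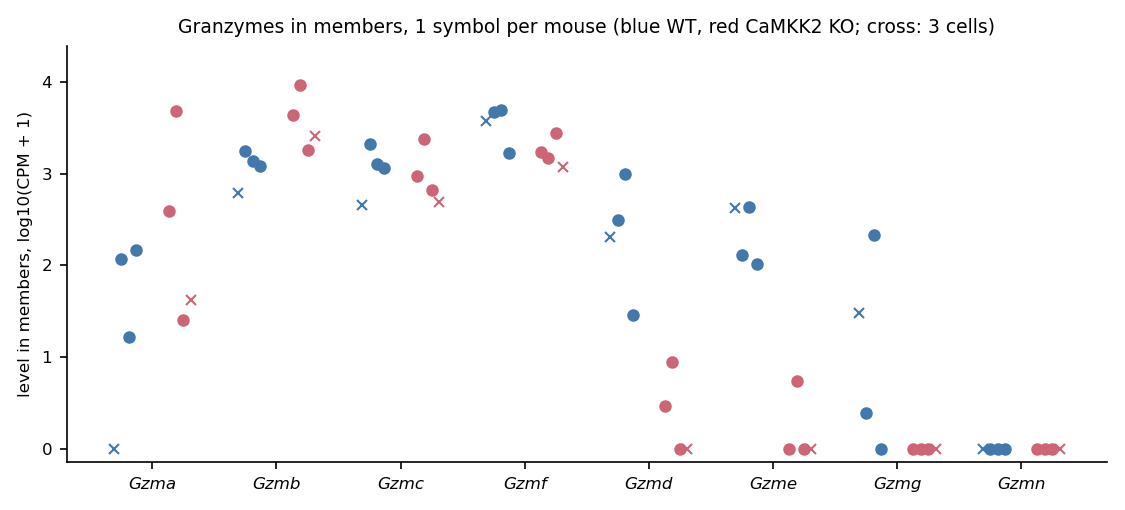
Level of 8 granzyme genes in the members of each mouse, as log10(CPM + 1). Points are mice by genotype, and crosses mark the 2 mice with 3 members. Gzmb, Gzmc and Gzmf are present in all mice, Gzmd and Gzme lie lower in CaMKK2 KO mice, and Gzmn is at 0.

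Members were next compared with other CD8 T cells of the same mouse, to see which genes outside the gate went with granzyme C and F. Gene counts were summed per mouse and state for the 6 mice with at least 10 members and tested with edgeR's quasi-likelihood test with the mouse as a block. At a Benjamini-Hochberg adjusted p under 0.05, 119 of 7456 genes were higher in members (1.6%) and 202 were lower (2.71%). Higher genes included granzyme B, metallothionein 1, mitotic genes and glycolytic enzymes, and lower genes included interferon-induced genes, stem-like and memory genes and the chemokine Ccl5. The gate genes, the paralogs Gzmd, Gzme, Gzmg and Gzmn, and the label's markers Xcl1 and Mt2 were left out of the test. The median log2 difference of all tested genes was -0.03, and the split was 180 higher and 182 lower with TMM normalization and 96 and 91 with DESeq2.

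Among cytotoxic granule genes, 1 of 18 tested was higher (Gzmb) and 2 were lower (Nkg7, Fasl), with a median log2 difference of -0.07. Gzmb in members of WT mice 2, 3 and 4 stood at 1794, 1376 and 1205 CPM, against 723, 710 and 545 CPM in their other CD8 T cells. In CaMKK2 KO mice 1, 2 and 3 it stood at 4325, 9403 and 1812 against 2482, 3465 and 845 CPM. Every mouse thus had the higher value in its members, although the 2 states overlapped between mice (log2 difference 1.13 ± 0.08 approximate SE, edgeR adjusted p = 2.55e-07, 6 of 6 mice). Nkg7, a granule membrane protein, was lower at 1427 to 2250 against 2015 to 2795 CPM (log2 -0.41 ± 0.08, edgeR adjusted p = 0.00543). Prf1, which encodes perforin, did not pass the test (240 to 743 against 135 to 478 CPM, log2 0.46 ± 0.13, edgeR adjusted p = 0.0585). Fasl, the ligand of the death receptor Fas, was lower (median 73.2 against 104 CPM) and lost significance without WT mouse 3, WT mouse 4, CaMKK2 KO mouse 1 or CaMKK2 KO mouse 2 (edgeR adjusted p up to 0.139).

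Of 12 lymphocyte cytokine and chemokine genes tested, 4 were lower in members (Ccl3, Ccl4, Ccl5 and Ltb) and 1 was higher (Spp1, which encodes osteopontin). Ccl5, which draws T cells and macrophages, stood in members of WT mice 2, 3 and 4 at 1120, 1008 and 778 CPM against 4688, 3619 and 2415 CPM in other CD8 T cells. In CaMKK2 KO mice 1, 2 and 3 the values were 1863, 288 and 1089 against 4372, 6062 and 2546 CPM. No value of members reached the lowest of other CD8 T cells (log2 -2.0 ± 0.28, edgeR adjusted p = 0.000547, lower in 6 of 6 mice). Ccl4 was lower as well, at a median of 556 against 964 CPM (log2 -0.84 ± 0.16, edgeR adjusted p = 0.00543). Ifng did not pass the test (74.3 to 344 against 145 to 546 CPM, edgeR adjusted p = 0.486). Spp1 (0.151), Ltb (0.103) and Ccl3 (0.0919) lost significance without WT mouse 3, the values being edgeR adjusted p.

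Metallothionein 1 was the named gene with the largest rise. Mt1 stood at 267, 141 and 233 CPM in members of WT mice 2, 3 and 4 and at 357, 993 and 603 CPM in those of CaMKK2 KO mice 1, 2 and 3. Other CD8 T cells of the same mice held 120, 74.1 and 53.9 and 93.0, 83.4 and 165 CPM. Members were higher in 6 of 6 mice (log2 1.92 ± 0.22, edgeR adjusted p = 0.000107), with CaMKK2 KO mouse 2 the highest. Mt1 was the only 1 of 10 metallothionein and zinc transport genes to pass. Mt3 stood at 0 to 33.9 against 4.57 to 18.5 CPM (edgeR adjusted p = 0.483).

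**Figure D3:**
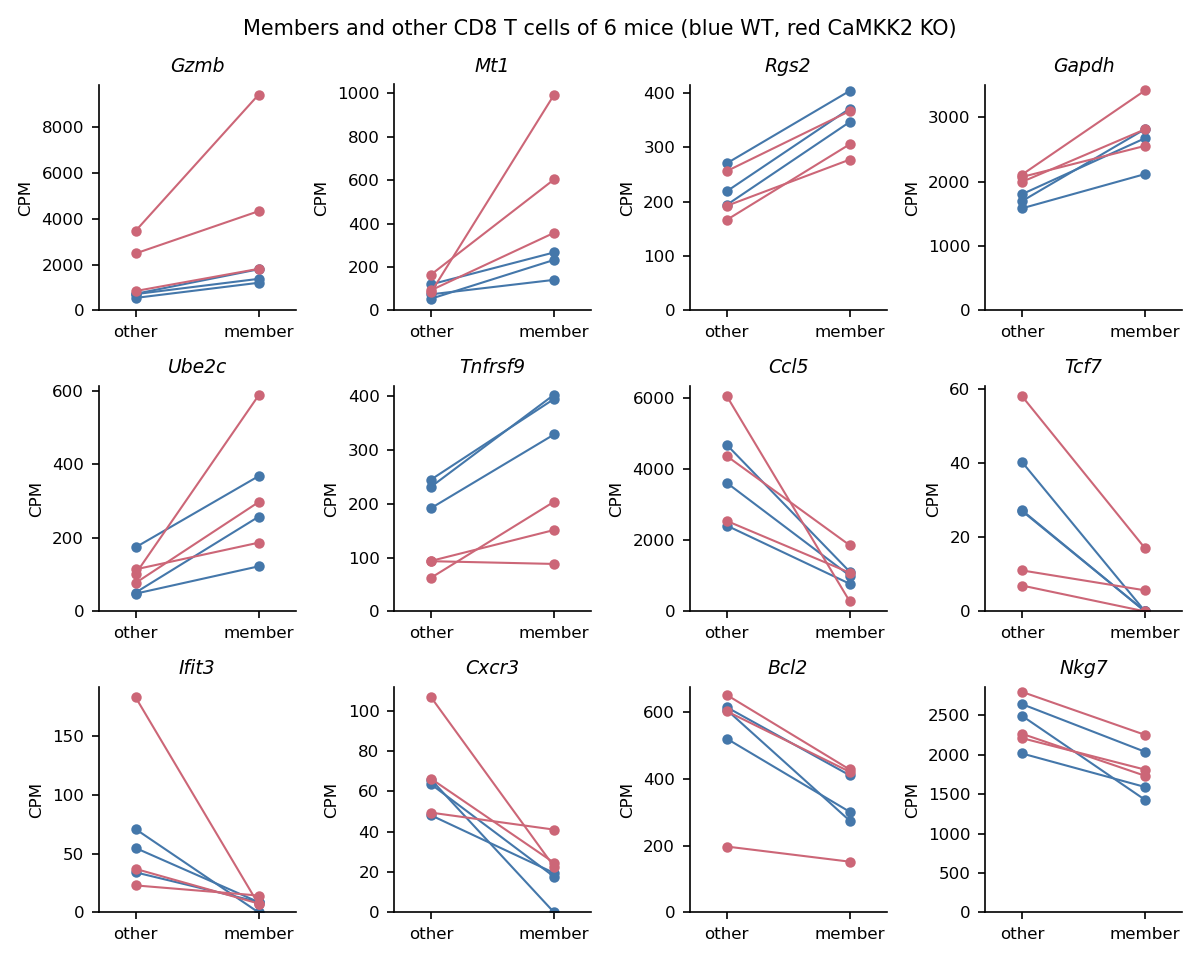
CPM of 12 genes in members and in other CD8 T cells, with a line for each of the 6 mice that had at least 10 members, colored by genotype. Gzmb, Mt1, Rgs2, Gapdh and Ube2c rise from other CD8 T cells to members in all 6 mice, and Ccl5, Ifit3 and Tcf7 fall in all 6.

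Of 33 cell cycle genes tested, 15 were higher in members and none was lower, with a median log2 difference of 0.74 against -0.03 over all genes tested. They included the kinases and cyclins of mitosis (Cdk1, Plk1, Aurkb, Ccnb1, Ccnb2, Ccna2), spindle and kinetochore genes (Tpx2, Nusap1, Cenpf) and Ube2c, the ubiquitin-conjugating enzyme that serves the anaphase-promoting complex. Ube2c stood at 122, 367 and 257 CPM in members of WT mice 2, 3 and 4 and 297, 587 and 187 CPM in those of CaMKK2 KO mice 1, 2 and 3. Other CD8 T cells of these mice held 48.2, 174 and 51.2 and 77.3, 102 and 114 CPM. Members were the higher in every mouse (log2 1.64 ± 0.19, edgeR adjusted p = 0.000118, 6 of 6 mice). Ube2c missed the threshold after thinning to 4000 UMIs (log2 1.04, edgeR adjusted p = 0.157) and when members needed at least 10 granzyme UMIs (log2 0.98, edgeR adjusted p = 0.0626). Mki67, the usual proliferation marker, did not pass the test (118 to 536 against 75.9 to 294 CPM, log2 0.67 ± 0.29, edgeR adjusted p = 0.21). The count for the list was 4 of 32 among cells with under 3 C1q UMIs, 1 of 33 when members needed at least 10 granzyme UMIs, 1 of 18 after thinning all cells to 4000 UMIs, and 7 of 33 without WT mouse 4 or without CaMKK2 KO mouse 2. Other mitotic genes named by size were Aurka, Hmmr, Cks1b and Ckap2l, with log2 differences of 1.75, 1.17, 1.21 and 1.41. Of these, Aurka (edgeR adjusted p = 0.0853 without WT mouse 4), Hmmr (0.0808 without CaMKK2 KO mouse 2) and Cks1b (0.0594 without WT mouse 3) lost significance without 1 mouse, as did Ccna2 (0.0505 without CaMKK2 KO mouse 2). Ckap2l and Cks1b missed the threshold when members needed at least 5 granzyme UMIs (log2 0.87 and 0.90, edgeR adjusted p = 0.187 and 0.152). Hmmr (edgeR adjusted p = 0.0989) and Ccnb2 (0.159) did so as well. Among cells with under 3 C1q UMIs, Ckap2l (edgeR adjusted p = 0.126), Cks1b (0.0776), Aurka (0.115), Hmmr (0.177) and Ccna2 (0.189) missed it. Without the mouse block, Aurka (edgeR adjusted p = 0.0704) and Hmmr (0.0746) missed it.

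The share of cycling cells gave a second view of proliferation. A cell was called cycling where it held at least 1 UMI of Mki67 and Top2a together. After thinning to 4000 UMIs, 34.9%, 64.3% and 42.3% of members of WT mice 2, 3 and 4 were cycling, against 19.4%, 24.6% and 16.5% of other CD8 T cells. In CaMKK2 KO mice 1, 2 and 3 the shares were 28.6%, 68% and 28.6% against 29.1%, 31.2% and 25.2%. Members had the higher share in 5 of 6 mice, by 20.1 ± 16.9 percentage points (mean ± SD, exact sign-flip p = 0.0625, two-sided, where 6 mice allow no p below 0.0312). Unthinned, the difference was 24.3 ± 19.9 points (exact sign-flip p = 0.0625). Between genotypes the share in members was 47.2% in WT and 41.7% in CaMKK2 KO mice (exact permutation p = 0.6, n = 3 each, where no p below 0.1 is possible).

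Of 25 glycolysis and hypoxia genes, 9 were higher in members and none was lower (Gapdh, Tpi1, Pgk1, Pgam1, Eno1, Pkm, Ldha, Bnip3 and Ndrg1, median log2 0.47 over the list). Gapdh, which catalyses the oxidation step of glycolysis, stood at 2120 to 3420 CPM in members and 1588 to 2112 CPM in other CD8 T cells, so that every member value exceeded every other value (log2 0.53 ± 0.07, edgeR adjusted p = 0.000547). Pgk1, the ATP-forming kinase after it, had a median of 621 against 420 CPM (log2 0.65 ± 0.11, edgeR adjusted p = 0.00215). Ldha, which makes lactate, had a median of 952 against 678 CPM (log2 0.59 ± 0.11, edgeR adjusted p = 0.00485). The count was 3 of 16 after thinning and 7 to 10 under the other settings tried. Bnip3, a hypoxia-induced mitophagy receptor, lost significance without CaMKK2 KO mouse 1 (edgeR adjusted p = 0.193).

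Stem-like and memory genes were lower. Of 15 tested, 9 were lower in members and none was higher (Tcf7, Slamf6, Ccr7, Klf2, Klf3, Bcl2, Satb1, Ly6c2 and Rasgrp2, median log2 -0.88). Tcf7, which encodes TCF1, the transcription factor that keeps T cells stem-like, was at 0 CPM in the members of 6 of the 8 mice and at 5.67 and 17 CPM in CaMKK2 KO mice 1 and 2. Other CD8 T cells of these 2 mice held 11.0 and 57.9 CPM, and those of the other mice 6.96 to 81.5 CPM (log2 -2.79 ± 0.49, edgeR adjusted p = 0.00382, and 0.0817 without the mouse block, lower in 6 of 6 mice). Only 18 Tcf7 UMIs were counted in members, 15 of them in CaMKK2 KO mouse 2. Without that mouse the log2 difference was -4.06. It was -2.12 and -7.85 with at least 2 and 5 granzyme UMIs, and -4.34 among cells with under 3 C1q UMIs. Ccr7, the receptor for lymph node entry, lay at 0 to 12.2 against 2.09 to 88.1 CPM (log2 -3.21 ± 0.48, edgeR adjusted p = 0.00109). Bcl2, which protects against apoptosis, was at a median of 356 against 604 CPM (log2 -0.67 ± 0.11, edgeR adjusted p = 0.00162). The list's count was 2 of 15 without the mouse block, 3 of 15 with DESeq2, 5 of 13 among cells with under 3 C1q UMIs, 5 of 14 without WT mouse 4 and 1 of 6 after thinning. Slamf6, a receptor of precursor cells, lost significance without WT mouse 4 (edgeR adjusted p = 0.107).

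Interferon-induced genes were lower too, 11 of 25 tested and none higher (among them Irf7, Isg15, Ifit1, Ifit2, Ifit3, Ifi47, Rsad2, Bst2, Irgm1 and Zbp1, median log2 -0.74). Ifit3, which blocks viral RNA translation, stood at 8.85, 0 and 8.74 CPM in members of WT mice 2, 3 and 4 and 7.56, 6.80 and 14.4 CPM in those of CaMKK2 KO mice 1, 2 and 3. Other CD8 T cells held 34.1, 70.9 and 54.8 and 37.1, 183 and 23.0 CPM. No member value reached the lowest of the other values (log2 -2.95 ± 0.39, edgeR adjusted p = 0.000454, and 0.117 after thinning). Isg15, a ubiquitin-like modifier, was at a median of 24.0 against 65.4 CPM (log2 -1.67 ± 0.27, edgeR adjusted p = 0.00184). Ddx60, Ifit1bl1 and Rsad2 were also among the 12 genes named for the largest falls. The count was 0 of 17 after thinning, 3 of 25 without the mouse block, 6 of 25 with DESeq2 or under 3 C1q UMIs, and 7 of 25 without WT mouse 4 or with at least 10 granzyme UMIs. In the other CD8 T cells of CaMKK2 KO mouse 2 the level of Ifit3 was the highest of the 6 mice, and without that mouse 7 of 24 genes were lower.

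Of 21 inhibitory receptor and exhaustion genes tested, 4 were lower in members (Cd160, Nt5e, Tox and Lax1) and none was higher. The median log2 difference was -0.27, against -0.03 over all genes tested. Pdcd1, which encodes PD1, stood at 242 to 407 against 225 to 441 CPM (log2 0.05 ± 0.10, edgeR adjusted p = 0.828), and the states overlapped. Havcr2, which encodes TIM3, was at 92.3 to 182 against 68.3 to 178 CPM (edgeR adjusted p = 0.409). Tox, a transcription factor of exhausted T cells, was lower in 6 of 6 mice at a median of 92.3 against 186 CPM (log2 -0.73 ± 0.16, edgeR adjusted p = 0.0161), and missed the threshold without WT mouse 2 (0.0631). Cd160 did so without CaMKK2 KO mouse 1 (edgeR adjusted p = 0.124). The count of lower genes in the list was 1 of 20 without CaMKK2 KO mouse 1, 1 of 19 without WT mouse 4, 2 of 20 without WT mouse 2 or without WT mouse 3, and 2 of 21 with DESeq2.

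Among 13 costimulatory receptors, Tnfrsf9 (4-1BB, induced by T-cell receptor signalling) was higher and Cd27, Cd2 and Cd6 were lower. Tnfrsf9 stood at 403, 395 and 329 CPM in members of WT mice 2, 3 and 4 and 151, 204 and 88.2 CPM in those of CaMKK2 KO mice 1, 2 and 3. In other CD8 T cells it stood at 232, 245 and 192 and 93.8, 62.6 and 93.3 CPM. Members were higher in 5 of 6 mice, the exception being CaMKK2 KO mouse 3 (log2 0.74 ± 0.15, edgeR adjusted p = 0.00873). None of the 13 was lower without WT mouse 4, without CaMKK2 KO mouse 1 or without CaMKK2 KO mouse 2. Of 22 T-cell receptor signalling genes only Lck, the kinase that starts the cascade, passed. It was lower, at 303 to 416 against 436 to 503 CPM (log2 -0.40 ± 0.10, edgeR adjusted p = 0.0259, and 0.108 without WT mouse 4). No gene of the list passed with DESeq2 or without WT mouse 3.

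Of 23 genes of interleukin 2 and gamma-chain cytokine signalling, 4 were lower (Socs1, Socs3, Pim1 and Pim2, all induced by STAT factors) and none was higher. None of the 23 passed without WT mouse 2 or without WT mouse 3, and 1 passed with DESeq2. Stat3 did not pass (123 to 278 against 145 to 249 CPM, edgeR adjusted p = 0.716). Of 22 effector transcription factors Id2, Maf and Ikzf3 were lower, and 1 of 22 was without CaMKK2 KO mouse 1. Of 19 residency and homing genes, Rgs2, a brake on G-protein signalling, was higher at 277 to 404 against 166 to 271 CPM (log2 0.68 ± 0.10, edgeR adjusted p = 0.00091). The chemokine receptors Cxcr3, Cxcr4, Cxcr6 and Ccr7 and the selectin ligand Selplg were lower. The count of lower genes in this list was 2 of 19 with DESeq2 or without WT mouse 4, 3 of 19 without WT mouse 3, and 0 of 16 after thinning. Cxcr3, the receptor for interferon-induced chemokines, lay at 0 to 41.0 against 48.1 to 107 CPM, without overlap (log2 -1.73 ± 0.33, edgeR adjusted p = 0.00617). Cxcr3 missed the threshold with DESeq2 (adjusted p = 0.0614) and after thinning (log2 -1.33, edgeR adjusted p = 0.253). Of 13 NK receptor genes, the adaptor Fcer1g was higher (median 464 against 284 CPM, log2 0.58 ± 0.12, edgeR adjusted p = 0.0091). The activating receptor NKG2D (Klrk1) was lower (median 330 against 478 CPM, log2 -0.50 ± 0.10, edgeR adjusted p = 0.0091), and so was Klra7. Klra7 gave 1 UMI in members of the fitted WT mice and 0 in those of the fitted CaMKK2 KO mice. Other CD8 T cells of these mice gave 39 and 66 UMIs, and WT mouse 3 had 0 in both states. None of 12 NK receptor genes was lower among cells with under 3 C1q UMIs. Further genes named by size were Myo10, an unconventional myosin, Igfbp7 and Tubb6 among the higher, with log2 differences of 1.68, 1.24 and 1.18. Among the lower were the sterol exporter Abcg1, Pacsin1 and Mylip, at -2.13, -2.10 and -1.71. Mylip lost significance without WT mouse 4 (edgeR adjusted p = 0.0695) and Cxcr6 without WT mouse 3 (0.0569). Igfbp7 had a log2 difference of 0.54 (edgeR adjusted p = 0.507) among cells with under 3 C1q UMIs and 1.04 (0.123) without the mouse block. Tubb6 missed the threshold among cells with under 3 C1q UMIs (edgeR adjusted p = 0.0776).

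**Figure D4:**
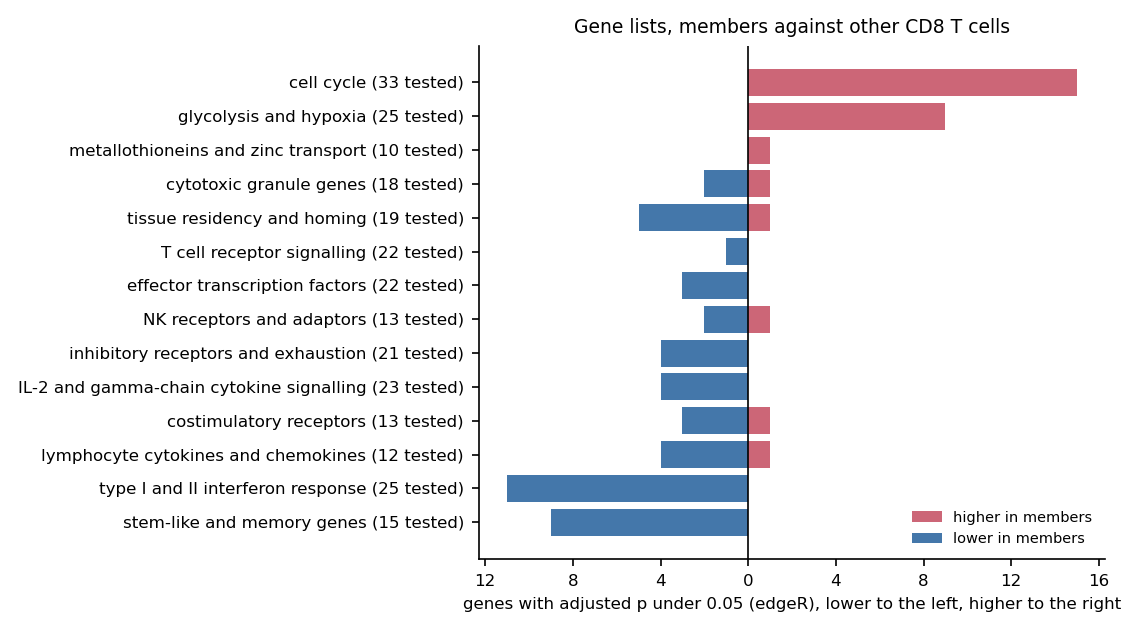
Number of genes of each list that were higher (right) or lower (left) in members than in other CD8 T cells at an adjusted p under 0.05, for lists with at least 10 genes tested. Cell cycle (15 of 33) and glycolysis (9 of 25) hold higher genes only, and stem-like and memory (9 of 15) and interferon response (11 of 25) lower genes only.

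RNA of other cell types was measured beside these results. The summed level of 8 macrophage marker genes was 664 to 2160 CPM in members and 582 to 4527 CPM in other CD8 T cells, with Cd74 the most abundant. It was highest in CaMKK2 KO mouse 2 in both states. Of 7 macrophage genes tested, Apoe was lower in members and none was higher. No macrophage gene passed with DESeq2 or without WT mouse 2, WT mouse 3, WT mouse 4 or CaMKK2 KO mouse 2. The 7 NK marker genes summed to 160 to 901 CPM in members and 223 to 846 CPM in other CD8 T cells, with Fcer1g the most abundant. Trdc was the most abundant of 4 gamma-delta T-cell genes, which summed to 15.9 CPM or less in members. The part of this RNA and of the depth difference in the comparison was not tested, apart from the counts given for cells with under 3 C1q UMIs and for thinned cells.

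The genotypes were then compared within members, in WT mice 2, 3 and 4 against CaMKK2 KO mice 1, 2 and 3. Each genotype was run on 1 channel, so that a genotype difference cannot be told apart from a channel difference. Of 4188 genes tested with edgeR, 2 were higher (0.0478%) and 6 lower (0.143%) in CaMKK2 KO members at an adjusted p under 0.05. The higher genes were Wls and Gm8797, and the lower ones included Apoe, Eif3j1, Serpina3g, Crlf2 and Gzme. In other CD8 T cells of all 8 mice, 37 of 6547 genes were higher (0.565%) and 26 lower (0.397%), and with TMM normalization 22 and 28. DESeq2 called 42 higher and 77 lower, and 25 of the 63 edgeR calls were among them. A test of whether the genotype difference was unlike between members and other CD8 T cells called 0 of 7470 genes with edgeR, with 268 at an unadjusted p under 0.05, and 1 with DESeq2. Leaving out WT mouse 4 or CaMKK2 KO mouse 3 also gave 1 gene with edgeR. In simulated counts this edgeR test recovered 14% of 2-fold and 72% of 4-fold changes. The count of 0 therefore does not show that the 2 kinds of cell were alike.

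Wls, which carries Wnt proteins to the cell surface, showed the largest rise of the genes the naming rule allowed. It stood at 28.0, 15.6 and 22.7 CPM in members of WT mice 2, 3 and 4 and 310, 136 and 302 CPM in those of CaMKK2 KO mice 1, 2 and 3, with no overlap (log2 3.38 ± 0.38, edgeR adjusted p = 0.00452). The 3 cells of WT mouse 1 and of CaMKK2 KO mouse 4, outside the fit, held 72.7 and 263 CPM. In other CD8 T cells the log2 difference was 3.43 ± 0.18 (edgeR adjusted p = 3.1e-08), and NK cells averaged 31.0 CPM in WT mice against 479 CPM in CaMKK2 KO mice. Gm8797, named although its symbol falls outside the naming rule and so chosen after its values were seen, stood at 0 to 7.0 CPM in WT and 125 to 182 CPM in CaMKK2 KO members (log2 4.85 ± 0.39, edgeR adjusted p = 0.000283). NK cells showed 5.98 against 161 CPM.

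Apoe, the lipid carrier that macrophages and microglia make in quantity, was the lower gene with the smallest adjusted p. Its level in members was 273, 211 and 224 CPM in WT mice 2, 3 and 4 and 28.4, 26.0 and 14.4 CPM in CaMKK2 KO mice 1, 2 and 3 (log2 -3.33 ± 0.26, edgeR adjusted p = 0.000283). Macrophages and microglia averaged 28539 CPM in WT mice against 2273 CPM in CaMKK2 KO mice, and other CD8 T cells showed a log2 difference of -3.42 ± 0.40 (edgeR adjusted p = 0.000327). How much of the Apoe in members was RNA from macrophages was not tested. Eif3j1, a translation initiation subunit, was at 90.0, 62.5 and 83.9 against 17, 23.8 and 14.4 CPM (log2 -2.07 ± 0.28, edgeR adjusted p = 0.0161). In NK cells Eif3j1 went the same way, with 115 against 22.4 CPM. Its paralog Eif3j2 went the opposite way in NK cells, with 3.29 CPM in WT against 57.2 CPM in CaMKK2 KO mice, without overlap.

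Serpina3g, an inhibitor of cathepsins, was at 394, 309 and 247 against 117, 116 and 140 CPM in members (log2 -1.36 ± 0.21, edgeR adjusted p = 0.0408). Crlf2, the receptor subunit for thymic stromal lymphopoietin, was at 139, 133 and 138 against 68.1, 56.6 and 53.3 CPM (log2 -1.21 ± 0.20, edgeR adjusted p = 0.0446). WT and CaMKK2 KO mice did not overlap for either gene. In NK cells Crlf2 averaged 113 against 68.0 CPM. Serpina3g went the opposite way over all cells of a mouse, at 114 CPM in WT against 170 CPM in CaMKK2 KO mice without overlap, and in macrophages and microglia the means were 46.7 and 116 CPM, with overlap. Both sat near the threshold, and leaving out WT mouse 2 gave an edgeR adjusted p of 0.13 for each. Crlf2 missed the threshold without any 1 of the 6 mice and with limma (adjusted p = 0.107), and Serpina3g without any 1 of 5 of them. Without WT mouse 2, the value for Eif3j1 was 0.0846, and 4 genes in all were called.

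Gzme was lower in CaMKK2 KO members, at 130, 430 and 101 CPM in WT mice 2, 3 and 4 against 0, 4.53 and 0 CPM in CaMKK2 KO mice 1, 2 and 3 (log2 -6.49 ± 0.86, edgeR adjusted p = 0.0155). This rested on few cells. Over all mice, those outside the fit included, 285 UMIs were counted in 13 WT members and 4 UMIs in 4 CaMKK2 KO members. The adjusted p rose to 0.068 once CaMKK2 KO mouse 3 was left out, to 0.0946 among cells with under 3 C1q UMIs and to 0.0681 with limma. The fitted size and its ± depend on the prior count, since 2 of the 3 CaMKK2 KO mice were at 0. Gzmd moved likewise, at 316, 989 and 28.0 against 1.89, 7.93 and 0 CPM, but did not pass the test (edgeR adjusted p = 0.105). In NK cells Gzme overlapped between genotypes (164 ± 14.7 against 76.5 ± 105 CPM, n = 4 each), with 232 CPM in CaMKK2 KO mouse 2. Gzmc and Gzmf, on which members were selected, overlapped between genotypes. Gzmc stood at 2118, 1263 and 1142 against 947, 2385 and 665 CPM, and Gzmf at 4759, 4953 and 1682 against 1746, 1476 and 2772 CPM.

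Gzmb, the main effector granzyme, was higher in all 3 CaMKK2 KO mice than in all 3 WT mice in members, but the difference did not pass the test there. The values were 1794, 1376 and 1205 against 4325, 9403 and 1812 CPM (log2 1.83 ± 0.45, edgeR adjusted p = 0.202). In other CD8 T cells the log2 difference was 2.26 ± 0.38 (edgeR adjusted p = 0.011, and 0.0884 without WT mouse 4), and the 2 genotype differences were not shown to be unlike (interaction log2 -0.03 ± 0.16). NK cells averaged 1351 CPM of Gzmb in WT against 3837 CPM in CaMKK2 KO mice, without overlap. Tnfrsf9 was lower in the other CD8 T cells of CaMKK2 KO mice (log2 -1.44 ± 0.18, edgeR adjusted p = 0.000848), with a value of -1.32 ± 0.27 (0.108) in members. Tox had a log2 difference of -1.58 ± 0.60 in members (edgeR adjusted p = 0.594), with 84.1, 192 and 192 CPM in WT mice 2, 3 and 4 and 54.8, 9.06 and 101 CPM in CaMKK2 KO mice 1, 2 and 3, and the genotypes overlapped. Stat3 had -0.74 ± 0.22 (edgeR adjusted p = 0.364). In members, 0 of 16 cytotoxic granule genes, 0 of 16 inhibitory and exhaustion genes and 0 of 31 cell cycle genes passed the test between genotypes, and the macrophage and chr14 granzyme lists held the called genes Apoe and Gzme. With 3 mice against 3, these counts do not show that the genes were alike.

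**Figure D5:**
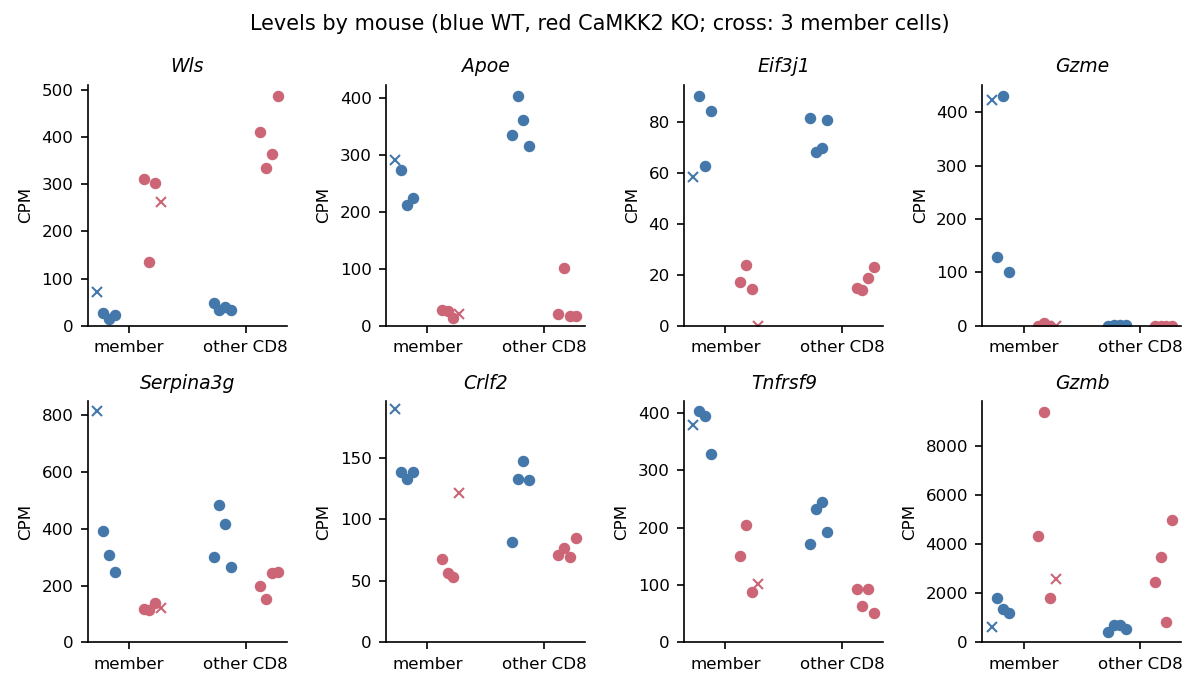
CPM of 8 genes in members and in other CD8 T cells of each mouse, by genotype. Wls is higher and Apoe, Eif3j1 and Crlf2 are lower in CaMKK2 KO mice in both kinds of cell, and Gzmb lies higher in CaMKK2 KO mice in both, with a called difference in other CD8 T cells.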

How the data were processed

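Single-cell libraries were made with the 10X 3′ v3.1 chemistry. Per the labels and the study's methods, the authors demultiplexed reads with bcl2fastq 2.20 and aligned them to mm10 with Cell Ranger 4.0.0 and STAR 2.7.5c. The deposited values are unnormalized UMI counts per gene and barcode for 6689 WT and 7271 CaMKK2 KO barcodes, with hashtags as further features.

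HTODemux (Seurat 5.3.0, quantile 0.99) gave each hashtagged barcode its mouse. Cells were gated on raw counts, and no other doublet caller was run. Counts were summed per mouse and state, at 255822 to 1579489 UMIs per sum for members against other CD8 T cells and 122734 to 1579489 for other CD8 T cells by genotype. The tool was edgeR 4.0.16 in R 4.3.3 (glmQLFit and glmQLFTest), with total UMIs as library sizes, genes with at least 100 UMIs in the fit, mice with at least 10 cells and Benjamini-Hochberg adjustment. The ± of an edgeR log2 difference is an approximate SE. It is the absolute difference divided by the square root of the quasi-likelihood F. DESeq2 1.42.0, TMM and limma 3.58.1 were alternatives. Shares were compared with two-sided exact permutation tests. The scripts were tested on simulated data, where the test between genotypes in members recovered 42% of 2-fold and 96% of 4-fold changes. A cell with at least 1 UMI of Mki67 or Top2a after thinning to 4000 UMIs was called cycling. Intervals and limits of shares cover counting error only.

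The members and gene lists were chosen with earlier results of these data known. Per comparison, the text names genes by a fixed rule, the 12 highest and 12 lowest by log2 difference with an adjusted p under 0.05, at least a 2-fold difference and the same direction in every mouse (or no overlap of genotypes), without gate genes and Gm or Rik symbols. To these were added Gzma, Gzmb, Tox, Stat3, Pdcd1, Camkk2 and examples from each list. Some genes that the rule names are not reported here. For other CD8 T cells by genotype, values are given only for genes also named in members. The B-cell gate planned at the start (Cd79a and Cd79b, 1122 cells) held 715 cells with 30 or more C1q UMIs. A stricter gate (Cd79a, no Cd3 genes, under 3 C1q UMIs, 325 cells) and a C1q limit of 30 for NK cells were therefore chosen after seeing the data.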

Additional observations from a re-analysis of the deposited data

Results flagged for a closer look

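In 66 groups of 4 mice checked for a value far from the other 3, 3 were found, where chance gives 1 in 20 groups, or 3.3. In the other CD8 T cells of CaMKK2 KO mouse 2, Apoe stood at 102 CPM, against 17.4 to 20.5 CPM in the other 3 mice of the genotype. The macrophage marker genes of these cells summed to 4527 CPM, the highest of the 8 mice. Zfp672 stood at 81.5 CPM in the other CD8 T cells of WT mouse 1, against 32.9 to 37.4 CPM in the other WT mice. Zfp990 stood at 1.18 CPM in the other CD8 T cells of WT mouse 2, against 0 in the other WT mice, and this value is 1 UMI.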

How the results depend on the processing

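Members against other CD8 T cells gave 321 called genes. The number was 187 with DESeq2, 634 with no filter on low counts, 144 and 106 with a threshold of 5 and 10 granzyme UMIs, 104 among cells with under 3 C1q UMIs, 29 after thinning to 4000 UMIs, 195 without the mouse block, and 117 to 495 when 1 mouse was left out, the lowest without WT mouse 4 and the highest without the third CaMKK2 KO mouse. CaMKK2 KO against WT in members gave 8 called genes, and 30 with DESeq2, 14 with at least 30 UMIs in the fit, 161 with no filter, 20 with a threshold of 2 granzyme UMIs, 0 after thinning, 22 with all mice, 5 with limma on mean CPM, and 4 to 14 when 1 mouse was left out. The thinned fits tested fewer genes. By genotype in members, thinning left 507 genes to test, with 1 of the 8 called genes among them. For members against other CD8 T cells it left 3042 genes, with 218 of the 321 among them. In other CD8 T cells the number of genes called by genotype was 63, and 119 with DESeq2, 291 with no filter, and 14 to 89 when 1 mouse was left out. The test of the genotype difference between the 2 kinds of cell gave 0, and 1 with DESeq2 and 0 to 1 when 1 mouse was left out.

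The share of members among CD8 T cells differed by 2.69 percentage points, and by -3.85 to 8.02 when 1 mouse was left out. Among all cells the difference of -0.13 points became 0.0886 with under 3 C1q UMIs, and -0.53 to 0.368 when 1 mouse was left out. The genotype difference in cycling members, -5.44 points, became 9.57 with at least 2 UMIs of Mki67 and Top2a as the criterion, and -18.6 to 3.12 when 1 mouse was left out. The 31 named genes kept their direction under every alternative that gave a value, with 387 values past the threshold and 76 that missed it. Their naming had required the same direction in every mouse or no overlap of genotypes. The kept direction when 1 mouse was left out is therefore no separate sign of stability. No paired analysis was possible across genotypes because the hashtag numbers are not stated to mark a shared litter or day. The causes of these changes were not tested. Members numbered 3 to 43 per mouse, and depth was 49472 to 882920 UMIs per mouse in members.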
